A study of Mus musculus with 9 samples.

Results

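The epidermal growth factor (EGF) receptor family was followed in 4T1-TGL cells through 8 genes. They comprised 3 receptor genes, Egfr, Erbb2 and Erbb3, and 5 ligand genes, Areg, Ereg, Hbegf, Tgfa and Btc. Members were taken by an exact match of the gene symbol in the expression tables, and all 8 were found among 19072 gene identifiers listed in at least 1 library. After a filter on low counts 7 of them were tested, and Ereg was not.

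4T1 is a mammary carcinoma cell line of the mouse, and the labels give the strain of the 4T1-TGL derivative as BALBC. RNA was sequenced from 3 groups with 3 libraries each. Ctrl cells are labelled wild type, and KO1 and KO2 are knockouts of Malat1, which encodes an abundant nuclear long noncoding RNA. All 3 groups were cultured in DMEM/F12 medium, and no further allele or agent is given. Each knockout is a single line, numbered #3 for KO1 and #43 for KO2 in the study's design, so an effect of the knockout and a difference of that line cannot be told apart. The labels do not say that libraries of a group came from separate cultures, and a p-value therefore speaks of the spread among these libraries alone, which may be technical.

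Ligands of this family are made as membrane-bound precursors, and proteases at the cell surface, ADAM17 and ADAM10 chief among them, cut the active growth factor free. Amphiregulin (Areg), epiregulin (Ereg), heparin-binding EGF (Hbegf), transforming growth factor alpha (Tgfa) and betacellulin (Btc) all bind EGFR, and epiregulin, heparin-binding EGF and betacellulin also bind ERBB4. Binding pairs the receptors and switches on their kinases, which signal through RAS and ERK and through PI3K and AKT. ERBB2 has no known soluble ligand and serves as a partner, and ERBB3, which binds neuregulins, has little kinase activity of its own. In the mammary gland amphiregulin carries the estrogen signal for duct growth, and ERBB2 is a driver of a class of breast carcinoma.

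The libraries held between 30655924 and 35406395 expected counts. Malat1 itself stood at 462 ± 54.9 CPM (counts scaled to the library total after TMM; SD, n = 3) in Ctrl, 3.40 ± 0.669 in KO1 and 126 ± 31.5 in KO2, and the labels do not give which stretch of the gene was deleted. No pair of replicates agreed within sampling noise. The fit of all genes called 4177 of 13682 tested genes between KO1 and Ctrl, 7400 between KO2 and Ctrl and 7529 between KO2 and KO1, where called means an adjusted p under 0.05 in edgeR's quasi-likelihood test. KO2 replicate 2 stood apart in listing 15678 genes against 15102 and 15100 in the other KO2 libraries. Among the markers of an epithelial carcinoma, Krt8 and Krt18 carried the signal, while Epcam reached at most 0.32 FPKM (fragments scaled by transcript length and library size) and Cdh1 at most 0.08. The macrophage marker signal was nearly all Cd68, with Ptprc at most 0.02 and C1qa not listed. Summed over each list, T cell markers reached at most 0.11 FPKM in a library and endothelial markers at most 0.76, the latter in KO2.

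Which genes of the family the cells used was read from FPKM, which is scaled by transcript length and so allows levels of different genes to be set side by side. In Ctrl the order was Areg, Hbegf, Tgfa, Erbb2, Egfr, Btc and Erbb3, and the ranges of neighbours in that order did not overlap. Areg led at 86.1 ± 21.3 FPKM (SD, n = 3), Hbegf followed at 31.7 ± 7.14 and Tgfa at 19.9 ± 1.22. Among the receptors Erbb2 had the highest level at 5.62 ± 0.0551 FPKM, Egfr stood at 1.54 ± 0.0651 and Erbb3 at 0.263 ± 0.0252. In Ctrl these 3 ligand transcripts were thus more abundant per length than any of the 3 receptor transcripts.

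In KO1 the ranges of Areg and Hbegf overlapped, as did those of Hbegf and Tgfa, and Erbb3 now stood above Btc with no overlap. In KO2 the order of FPKM was Tgfa at 18.2 ± 1.51, Hbegf at 9.40 ± 0.265, Erbb2 at 5.39 ± 0.386 and Areg at 4.96 ± 0.578, with Egfr, Btc and Erbb3 behind (SD, n = 3 each). The ranges of Erbb2 and Areg overlapped there, and so did those of Btc and Erbb3. Areg, the most abundant member in Ctrl, was thus at the level of the leading receptor in KO2.

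**Figure D1:**
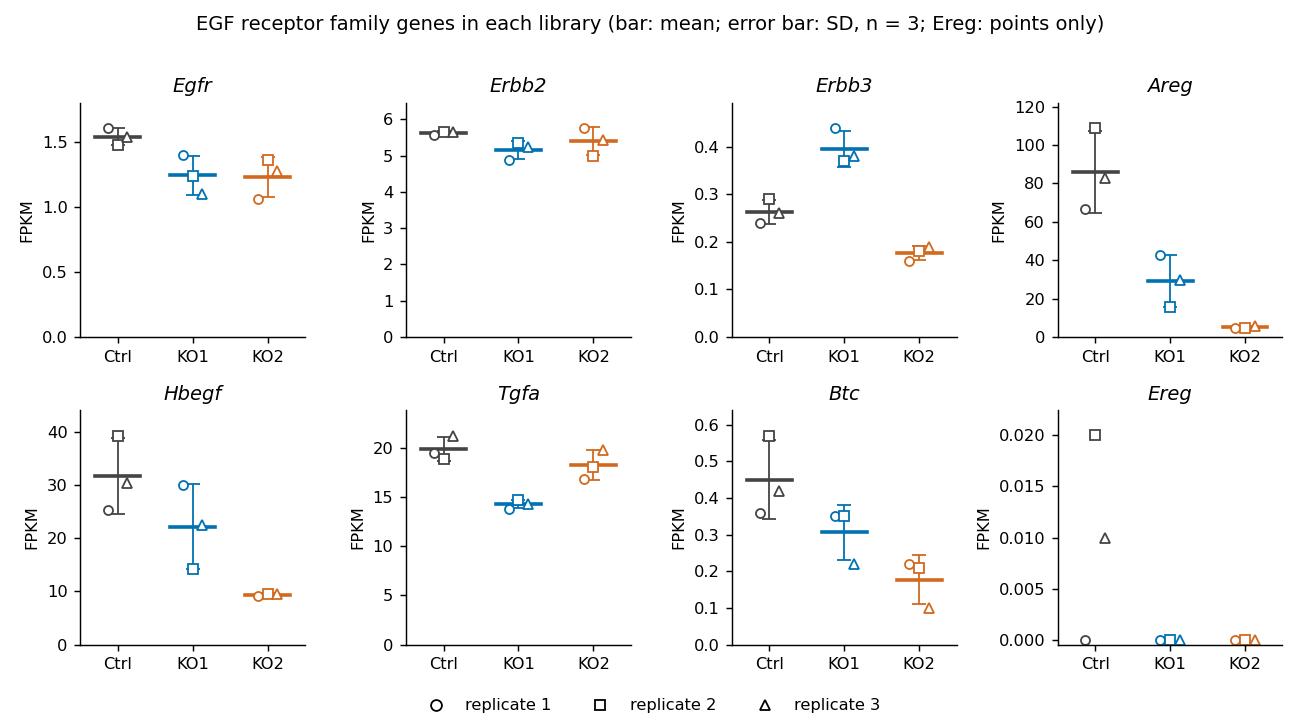
FPKM of the 8 genes in each of the 9 libraries, with 1 panel per gene, a bar at the group mean and an error bar of 1 SD (n = 3; Ereg is shown as points only). Areg goes from a mean of 86.1 in Ctrl to 29.3 in KO1 and 4.96 in KO2, while the 9 points of Erbb2 lie between 4.88 and 5.76.

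Amphiregulin was the member with the largest difference. Areg (chr5:91139599-91148432, + strand, GRCm38.p6) gave 76.9, 126 and 94.6 CPM in Ctrl replicates 1, 2 and 3. The KO1 libraries gave 48.1, 17.8 and 33.3 CPM, and the KO2 libraries 5.40, 5.83 and 6.87. All 3 Ctrl libraries were above all KO1 libraries, and all KO1 libraries were above all KO2 libraries, with no overlap between any pair of groups. Areg fell by 1.59 ± 0.33 (SE) on the log2 scale in KO1, to 33.3% of the Ctrl mean, with an adjusted p of 0.0068 by edgeR. In KO2 it fell by 4.04 ± 0.38, to 6.08% of the Ctrl mean, with an adjusted p of 3.6e-05 by edgeR. The SE given with every fold change is approximate and was taken as its absolute value divided by the root of F.

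The 250 bases before the start of Areg are shown because this gene changed most. They come from the RefSeq promoter table of GRCm38.p6, which holds 5 of the 8 members, at chr5:91139349-91139598 on the + strand, and hold no exon of the GENCODE annotation. Capitals mark matches of 2 motifs that were searched, the cAMP response element and the core of a TATA box.
Areg: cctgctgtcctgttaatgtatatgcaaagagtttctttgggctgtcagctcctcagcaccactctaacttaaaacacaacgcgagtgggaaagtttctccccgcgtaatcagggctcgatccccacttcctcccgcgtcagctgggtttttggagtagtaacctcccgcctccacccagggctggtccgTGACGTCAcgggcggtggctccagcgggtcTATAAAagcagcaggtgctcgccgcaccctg
The element TGACGTCA, which reads the same on both strands and is the sequence that CREB binds, starts 61 bases before the gene. It is present in 508 of 32851 promoter windows of this length, or 1.55%. The letters TATAAA, searched on both strands, start 31 bases before the gene and occur in 12.4% of the windows. The AP-1 site TGANTCA, also searched on both strands, has no match here and occurs in 6.75% of all windows, and it shares letters with the response element at its ends.

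The windows of Btc, Tgfa, Egfr and Erbb2 hold no match of the 3 motifs. Egfr, the receptor of the ligand above, is shown for contrast, at chr11:16751953-16752202 on the + strand of GRCm38.p6. Its window is 60.8% G and C, against 57.2% for Areg.
Egfr: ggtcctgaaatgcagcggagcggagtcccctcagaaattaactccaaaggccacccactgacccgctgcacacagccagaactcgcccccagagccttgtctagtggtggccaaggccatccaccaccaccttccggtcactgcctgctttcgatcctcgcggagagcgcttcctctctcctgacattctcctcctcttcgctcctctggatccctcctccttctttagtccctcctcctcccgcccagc
No binding was measured in these samples, so these matches describe the sequence alone.

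Heparin-binding EGF is a ligand that also attaches to heparan sulfate at the cell surface. Hbegf (chr18:36504927-36515805) gave 58.7, 92.0 and 69.9 CPM in Ctrl and 68.2, 32.3 and 51.0 CPM in KO1. The KO2 libraries gave 22.1, 23.1 and 23.7 CPM. KO1 overlapped Ctrl, since its replicate 1 lay within the Ctrl range, whereas every KO2 library was below every other library. In KO2 Hbegf fell by 1.68 ± 0.26 on the log2 scale, to a level 3.2-fold lower than in Ctrl (adjusted p 0.000551, edgeR). The KO1 value of -0.54 ± 0.25 did not pass the edgeR test, with an adjusted p of 0.133. It passed with DESeq2 (adjusted p 0.0442) and, in edgeR, without KO1 replicate 1, where the log2 fold change was -0.82 with an adjusted p of 0.024. In the other 15 alternatives it did not pass, and it was -0.31 (adjusted p 0.227) without KO1 replicate 2 and -0.35 (adjusted p 0.352) without Ctrl replicate 2, both by edgeR.

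Transforming growth factor alpha is the family ligand most studied as an autocrine factor of carcinoma cells. Tgfa (chr6:86195038-86275744) gave 87.1, 84.8 and 93.9 CPM in Ctrl, 60.3, 64.3 and 62.3 in KO1, and 78.6, 84.5 and 94.1 in KO2. The KO1 libraries were below all others, and the KO2 libraries spanned the Ctrl range. Tgfa fell by 0.51 ± 0.08 on the log2 scale in KO1, a 1.42-fold lower level (adjusted p 0.000582, edgeR). In KO2 the log2 fold change was -0.05 ± 0.08 with an adjusted p of 0.63 by edgeR. An unnamed transcript model on the opposite strand, Gm43917, overlaps an exon of Tgfa, and whether the counting used strand is not given in the sources used here.

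Betacellulin was expressed at a low level throughout. Btc (chr5:91357261-91402994) gave 1.02, 1.60 and 1.15 CPM in Ctrl, 0.947, 0.960 and 0.612 in KO1, and 0.655, 0.610 and 0.306 in KO2. Every Ctrl library was above every knockout library, and KO1 and KO2 overlapped. Btc fell in KO2 by 1.26 ± 0.33 on the log2 scale, to a level 2.4-fold lower (adjusted p 0.00802, edgeR). This rests on 129 counts over the Ctrl libraries and 47 over the KO2 libraries. Without single libraries it ran from -1.45 to -0.99, so a 2-fold fall was not kept each time. The KO1 value, -0.58 ± 0.31, had an adjusted p of 0.185 by edgeR.

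Epiregulin transcripts were close to undetected in every group. Ereg (chr5:91074617-91093649) had 0, 3 and 1 expected counts in the Ctrl libraries and was listed in no KO1 or KO2 library. With no filter on low counts, the adjusted p of edgeR was 0.254 for KO1 and 0.209 for KO2 against Ctrl, and no difference was detectable at this depth. Ereg lies beside Areg, and with Epgn (chr5:91027517-91035212, the gene of epigen) and Btc they form a ligand cluster on chromosome 5. Of these 4 genes Areg was the only one above 2 CPM in the Ctrl libraries, and Epgn summed to 18, 10 and 18 counts over the 3 libraries of Ctrl, KO1 and KO2.

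The ligand transcripts were also added up. The summed FPKM of the 5 ligands was 138 ± 28.1 in Ctrl, 66.1 ± 21.0 in KO1 and 32.8 ± 2.27 in KO2 (SD, n = 3). The ranges of 112 to 168, 44.8 to 86.8 and 30.6 to 35.1 did not overlap. Areg made up 62.0% ± 2.70 of the sum in Ctrl, 42.9% ± 7.19 in KO1 and 15.1% ± 0.700 in KO2. Tgfa went the other way as a share, from 14.8% ± 3.15 in Ctrl and 23.4% ± 8.55 in KO1 to 55.6% ± 0.764 in KO2, though its own FPKM in KO2 overlapped the Ctrl range. The leading ligand transcript was thus Areg in the Ctrl libraries and Tgfa in the KO2 libraries. The receptor sum was 7.43 ± 0.0200 FPKM in Ctrl, 6.79 ± 0.136 in KO1 and 6.80 ± 0.238 in KO2.

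**Figure D2:**
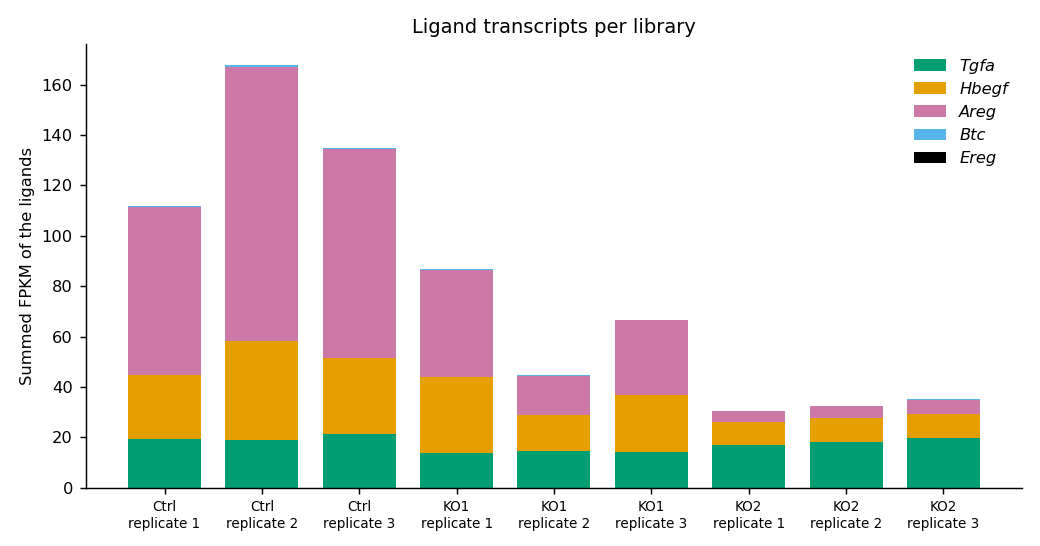
Summed FPKM of the ligand genes in each library, stacked by gene. Areg makes up 62.0% of the sum on average in Ctrl and 15.1% in KO2, where Tgfa makes up 55.6%.

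Egfr was the only receptor gene called against Ctrl, by a small change. Egfr (chr11:16752203-16913907), the receptor of all 5 ligands, gave 9.50, 8.78 and 8.57 CPM in Ctrl, 7.78, 6.66 and 6.06 in KO1, and 6.16, 7.32 and 7.21 in KO2. All Ctrl libraries were above all knockout libraries, and KO1 and KO2 overlapped. Egfr fell by 0.39 ± 0.13 on the log2 scale in KO1 (adjusted p 0.0367, edgeR), a 1.31-fold lower level. In KO2 it fell by 0.38 ± 0.13 (adjusted p 0.0258, edgeR), a 1.30-fold lower level.

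Both Egfr calls sat close to the threshold. Leaving out Ctrl replicate 1 ended the call in KO1 (-0.34, adjusted p 0.108 by edgeR) and in KO2 (-0.33, adjusted p 0.0793 by edgeR). The KO1 call was also lost without Ctrl replicate 2 (adjusted p 0.0605), Ctrl replicate 3 (0.0664), KO1 replicate 2 (0.0721), KO1 replicate 3 (0.145) or KO2 replicate 3 (0.0516), all by edgeR. The KO2 call was also lost without KO2 replicate 1 (-0.30, adjusted p 0.105 by edgeR). In limma on log2(FPKM + 1) the adjusted p was 0.102 for KO1 and 0.0604 for KO2.

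Egfr was counted over 2 transcripts, a long one for the whole receptor and a short one, and the tables give a mean length weighted by their estimated shares. That length was 5983, 5983 and 5713 bases in Ctrl, 5770, 5550 and 5725 in KO1, and 5625, 5210 and 5365 in KO2. Every KO2 value was below every Ctrl value, whereas KO1 overlapped Ctrl. Of 6541 genes counted over several transcripts, 9.74% had a shorter length in KO2 than in Ctrl with no overlap, and 6.18% in KO1. Because FPKM divides by this length, the FPKM of Egfr in KO2 is set over a shorter transcript than in Ctrl, and CPM is not.

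**Figure D3:**
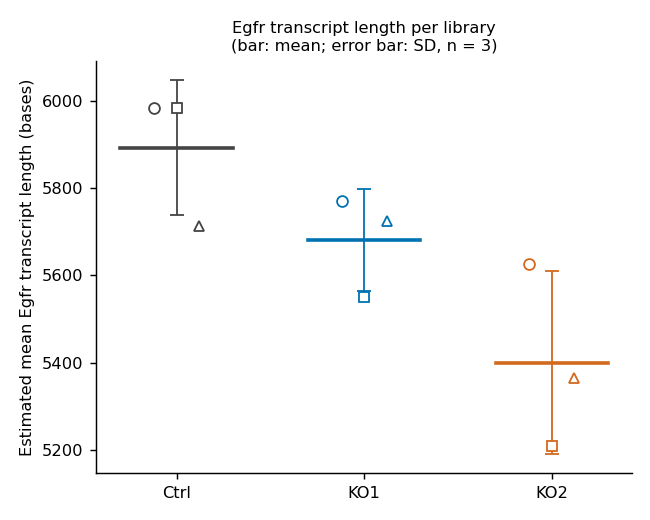
Weighted transcript length of Egfr in bases in each library, with the group mean and SD (n = 3), on an axis that does not start at 0. The KO2 libraries lie between 5210 and 5625 bases and the Ctrl libraries between 5713 and 5983.

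Erbb2, the partner receptor without a known ligand of its own, was called in none of the 3 comparisons. Erbb2 (chr11:98412484-98437716) gave 27.3, 28.0 and 27.5 CPM in Ctrl, 23.4, 25.8 and 25.0 in KO1, and 29.7, 25.7 and 28.3 in KO2. The KO1 libraries were all below the Ctrl libraries, and the KO2 libraries lay on both sides of them. The log2 fold change was -0.16 ± 0.08 in KO1 (adjusted p 0.16, edgeR) and 0.02 ± 0.08 in KO2 (adjusted p 0.88, edgeR). Its exons overlap Mien1 on the opposite strand, so some reads may not be assigned with certainty.

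Erbb3, the neuregulin receptor, lay on opposite sides of Ctrl in the knockouts. Erbb3 (chr10:128567523-128589635) gave 0.962, 1.15 and 1.03 CPM in Ctrl, 1.69, 1.42 and 1.47 in KO1, and 0.655, 0.746 and 0.782 in KO2. KO1 lay above Ctrl and KO2 below it with no overlap, at a level of about 1 CPM. Neither difference from Ctrl passed the edgeR test, with 0.54 ± 0.20 in KO1 (adjusted p 0.0672) and -0.53 ± 0.22 in KO2 (adjusted p 0.0636). In limma on log2(FPKM + 0.1) both passed, at 0.45 with an adjusted p of 0.0384 and at -0.39 with an adjusted p of 0.0419. On log2(FPKM + 1) limma passed the KO1 value (0.14, adjusted p 0.033) and not the KO2 value (-0.10, adjusted p 0.078), which passed there with no filter on low values (adjusted p 0.0422). DESeq2 passed neither, with adjusted p values of 0.16 and 0.174.

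Counted together, 3 of the 7 tested members were called lower in KO1 (Egfr, Areg and Tgfa) and none higher, against a background of 30.5% of all tested genes called, 14.9% of them lower and 15.6% higher. In KO2 4 of 7 were called lower (Egfr, Areg, Hbegf and Btc) and none higher, against 54.1% of all genes called, 29.5% lower and 24.6% higher. The counts of 3 and 4 are close to what the shares called in either direction, 30.5% and 54.1%, would give of 7 genes. All members called against Ctrl were lower, so the counts are above the 14.9% and 29.5% called lower. That excess was not tested. At an unadjusted p under 0.05 edgeR gave 1 member higher in KO1, which was Erbb3, and none in KO2. DESeq2 called none higher in either comparison, and limma on log2(FPKM + 1) called 1 in KO1 and none in KO2. The median log2 fold change of the tested members was -0.51 in KO1 and -0.53 in KO2, where the median of all tested genes was 0 and -0.03. Both comparisons use the same Ctrl libraries. At a fall of at least 2-fold, only Areg was called in KO1, where 3.52% of genes were, and Areg, Hbegf and Btc in KO2, where 11.4% were. The groups did not overlap for 6 of the 7 tested members in KO1 (all but Hbegf) and for 5 in KO2 (all but Erbb2 and Tgfa), against 42.7% and 65.7% of tested genes.

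**Figure D4:**
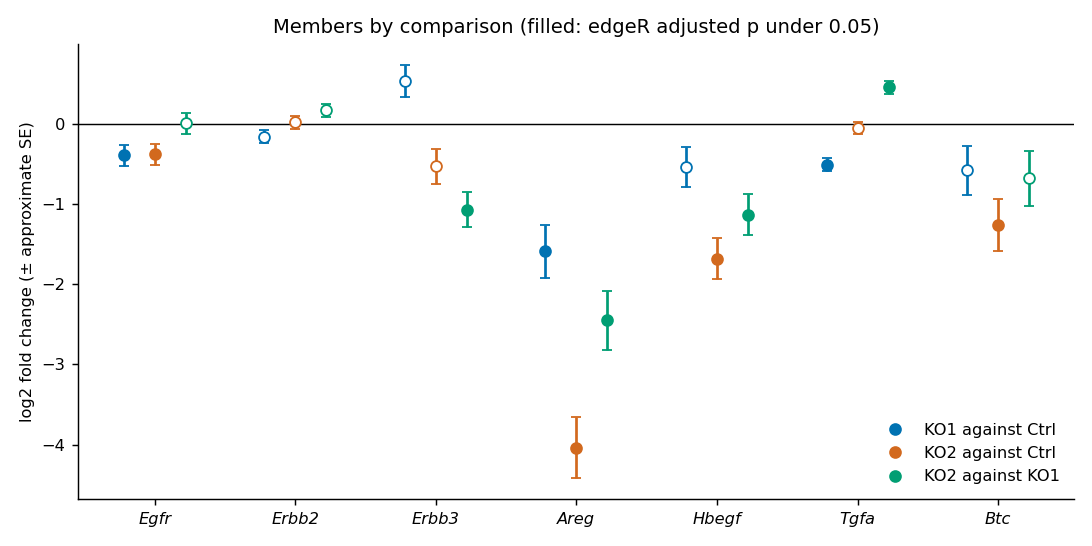
Log2 fold change of the 7 tested members in each comparison, with bars of 1 approximate SE and filled points for calls. Areg stands lowest in each comparison, at -1.59 for KO1 and -4.04 for KO2 against Ctrl and -2.45 for KO2 against KO1.

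The knockout lines were compared directly to ask where they differ in these genes. Between KO2 and KO1, 4 of the 7 tested members were called, 1 higher and 3 lower in KO2, against 55.0% of tested genes called, 25.5% higher and 29.5% lower. Areg was 5.48-fold lower in KO2 (log2 fold change -2.45 ± 0.37, adjusted p 0.000589, edgeR), and Hbegf was 2.2-fold lower (-1.13 ± 0.26, adjusted p 0.00478). Erbb3 was 2.1-fold lower in KO2 (-1.07 ± 0.22, adjusted p 0.00152, edgeR). These 3 were all at least 2-fold lower, as were 12.1% of tested genes, and the groups overlapped for Egfr, Erbb2 and Btc alone of the tested members, against 62.2% of genes without overlap. Tgfa alone was called higher, by 1.38-fold (0.46 ± 0.08, adjusted p 0.000497, edgeR). Egfr (0.01 ± 0.13, adjusted p 0.945), Erbb2 (0.17 ± 0.08, 0.0855) and Btc (-0.68 ± 0.34, 0.119) did not pass the edgeR test. Erbb2 passed it without KO1 replicate 2 (0.23, adjusted p 0.0435) or KO2 replicate 2 (0.23, adjusted p 0.043). The larger fall of Areg and Hbegf was in KO2, and that of Tgfa was in KO1. A link to the Malat1 level, at 3.40 CPM in KO1 and 126 in KO2, was not tested.

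Leaving out KO2 replicate 2, which lists more genes than the other KO2 libraries, left the members called in KO2 against Ctrl at 4. The log2 fold changes were then -4.02 for Areg, -1.68 for Hbegf and -1.38 for Btc.

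Areg and Hbegf also varied between libraries of a group. The highest Areg library was 1.64 times the lowest in Ctrl, 2.70 times in KO1 and 1.27 times in KO2. For Hbegf these ratios were 1.57, 2.11 and 1.07, and for Tgfa 1.11, 1.07 and 1.20. The median gene of at least 5 CPM had a ratio of 1.14 in Ctrl and 1.18 in KO1, and 0.403% of such genes reached the KO1 ratio of Areg. Both Areg and Hbegf, and Nrg1 with them, were highest in replicate 2 of Ctrl, highest in replicate 1 of KO1 and lowest in replicate 2 of KO1. That order was shared by 20.4% of all tested genes. In both knockout comparisons the fall of Areg remained called when any single library was left out.

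Genes with a pattern like that of a member were ranked by the root mean square difference of log2 CPM over the 9 libraries. Each gene was centred on its own mean and not scaled, so the size of a change counts as well as its order. The ranking covered 10281 genes with a mean of at least 5 CPM over the 9 libraries. Nearest to Areg were Ccn3, a matricellular protein, and Inhba, the activin beta A subunit, each at 0.32. Ccn3 had means of 34.7, 11.0 and 2.23 CPM in Ctrl, KO1 and KO2, and Inhba 16.3, 6.40 and 1.26. Hbegf itself ranked 132 from Areg, at 0.97. Nearest to Hbegf were Fads3, of the fatty acid desaturase family, at 0.12 and Coq10b, of coenzyme Q metabolism, at 0.15. Nearest to Btc, itself under 5 CPM, were Ccnb1ip1 at 0.27 and Gpm6b at 0.28. These points share their libraries and groups, so the ranking is a description.

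**Figure D5:**
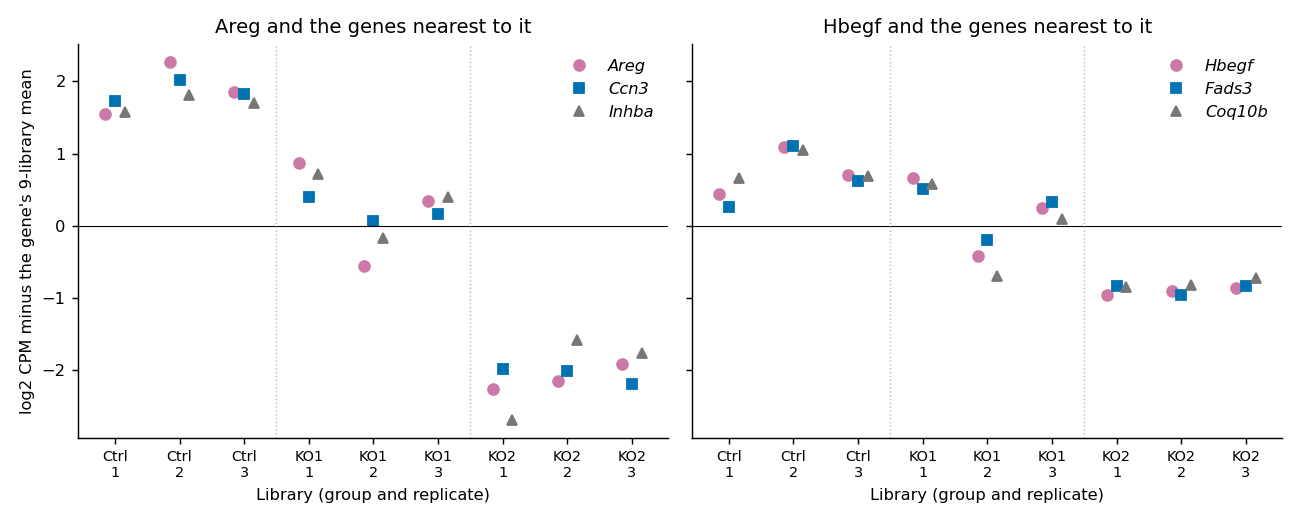
Log2 CPM minus the 9-library mean of each gene, for Areg and Hbegf and the 2 genes nearest to each, by library. Areg, Ccn3 and Inhba lie above their means in all Ctrl libraries and below them in all KO2 libraries, and the lowest KO1 library of Areg and Hbegf is replicate 2.

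Of the 7 remaining family genes, Erbb4 and Nrg3 were listed in no library and 4 were tested, with 1 higher and 1 lower in KO1 and 1 higher and 2 lower in KO2, where 30.5% and 54.1% of all tested genes were called. Neuregulin 1, the ligand of ERBB3 and ERBB4, gave 27.4, 46.4 and 31.5 CPM in Ctrl, 18.1, 10.3 and 14.6 in KO1, and 4.78, 3.80 and 3.81 in KO2. The groups did not overlap, as for Areg. Nrg1 fell by 1.29 on the log2 scale in KO1 (adjusted p 0.00215, edgeR) and fell by 3.09 in KO2 (adjusted p 5.59e-06, edgeR). Egf, the founding ligand, stood at 1.43 ± 0.331 CPM in Ctrl, 1.59 ± 0.403 in KO1 and 0.314 ± 0.113 in KO2 (SD, n = 3) and fell by 2.17 on the log2 scale in KO2 (adjusted p 0.00028, edgeR). Neuregulin 2 went against these, since Nrg2 rose in KO2 by 1.08 (adjusted p 0.000348, edgeR) from 1.58 ± 0.192 CPM. In KO1 Nrg2 rose by 0.68 (adjusted p 0.0125, edgeR), a call that was lost without Ctrl replicate 3 (0.59, adjusted p 0.0566). Nrg4 stood at 0.612 CPM in Ctrl and 0.929 in KO2, with a log2 fold change of 0.60 and an adjusted p of 0.0642 by edgeR.

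The machinery that frees the ligands differed between its parts. Of 11 shedding genes 10 were tested, with 2 higher and 5 lower in KO1 and 3 higher and 6 lower in KO2, at medians of -0.12 and -0.59. These are 7 and 9 called of 10, where 30.5% of all tested genes were called in KO1 and 54.1% in KO2, with medians of 0 and -0.03. Without Ctrl replicate 3 or without KO1 replicate 3 the KO1 counts were 1 higher and 3 lower. Adam17, the main sheddase of amphiregulin, stood at 224 ± 4.38 CPM in Ctrl, 183 ± 4.17 in KO1 and 149 ± 3.13 in KO2 (SD, n = 3). It fell by 0.29 in KO1 (adjusted p 0.00259) and by 0.59 in KO2 (adjusted p 7.16e-06), both by edgeR. Adam10, which sheds betacellulin and EGF, rose in KO2 by 0.54 (adjusted p 2.59e-05, edgeR), so the main sheddase genes moved in opposite directions there.

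The carriers of ADAM17 did not move together. Rhbdf2 (iRhom2) fell in KO2 by 0.97 (adjusted p 5.46e-06, edgeR), and Rhbdf1 (iRhom1) rose there by 0.35 (adjusted p 0.000943, edgeR). Rhbdf1 fell in KO1 by 0.22 (adjusted p 0.0264, edgeR), and removing Ctrl replicate 2 (0.0653), Ctrl replicate 3 (0.0939) or else replicate 3 of KO1 (0.0915) ended that call. Frmd8, whose product stabilises the iRhom and ADAM17 complex, rose in KO2 by 0.90 (adjusted p 2.05e-05, edgeR). In KO1 Frmd8 stood at -0.05 with an adjusted p of 0.767 by edgeR. It lies at chr19:5850974-5875269, near Malat1 at chr19:5795690-5802672, and a link to that position was not tested. Its exons overlap Frmd8os on the opposite strand, so some reads may not be assigned with certainty. Adam8 fell by 0.98 in KO1 (adjusted p 6.95e-05) and by 1.48 in KO2 (adjusted p 1.19e-06), both by edgeR. The rhomboid protease gene Rhbdl2 rose in KO1 by 0.52 (adjusted p 0.00681) and fell in KO2 by 1.18 (adjusted p 1.97e-05), both by edgeR.

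Among adaptors and kinases downstream of the receptors, 28 of 29 genes were tested, with 4 higher and 5 lower in KO1 and 5 higher and 10 lower in KO2. The 9 and 15 calls are close to the background of 30.5% and 54.1% of all tested genes, and the median log2 fold changes, 0.04 and -0.10, are close to the 0 and -0.03 of all genes. Gab1, an adaptor that carries the EGFR signal to PI3K and SHP2, had 587 counts over the Ctrl libraries and 3 over the KO2 libraries, all of them in KO2 replicate 2. Its KO2 level was 0.581% of Ctrl, with an exact 95% interval from counting alone of 0.12% to 1.71%. In KO1 the Gab1 value was 0.57 with an adjusted p of 0.0466 by edgeR, and it was not called without any 1 of the Ctrl or KO1 libraries, at adjusted p values from 0.0516 to 0.157. Its relative Gab2 fell by 0.73 in KO1 (adjusted p 0.0305) and by 0.90 in KO2 (adjusted p 0.00681), both by edgeR. The KO1 call of Gab2 ended when Ctrl replicate 2 (0.1), or KO1 replicate 2 (0.0769) or 3 (0.0798), was removed. Stat3, a transcription factor activated by EGFR, fell in KO2 by 1.58 (adjusted p 1.78e-08, edgeR). Akt1 fell in KO1 by 0.66 (adjusted p 0.00266) and rose in KO2 by 0.49 (adjusted p 0.00783), both by edgeR.

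Of 22 inhibitors and degradation factors of the receptors, 4 were higher and 3 lower in KO1, and 2 were higher and 8 lower in KO2, with medians of -0.01 and -0.06. The 7 calls in KO1 are close to the 30.5% of all tested genes called there, and the 10 in KO2 are a smaller share than the 54.1% of all genes. Errfi1 (MIG6), a feedback inhibitor that binds the EGFR kinase domain, stood at 280 ± 40.8 CPM in Ctrl, 211 ± 8.29 in KO1 and 57.3 ± 2.73 in KO2 (SD, n = 3). It fell by 0.41 in KO1 (adjusted p 0.00796) and by 2.29 in KO2 (adjusted p 1.3e-08), both by edgeR. Lrig1, a membrane inhibitor of the family, rose in KO1 by 0.74 (adjusted p 1.97e-05, edgeR) and in KO2 stood at 0.02 with an adjusted p of 0.815. Lrig3 had 491 counts over the Ctrl libraries and 1 over the KO2 libraries, or 0.232% of Ctrl with an exact 95% interval of 0.00585% to 1.30%. Sh3kbp1 (CIN85), which takes part in receptor endocytosis, rose by 0.44 in KO1 (adjusted p 0.00144) and by 1.36 in KO2 (adjusted p 1.13e-07), both by edgeR.

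Genes that answer ERK signalling or feed back on it were read last. Of 19 tested, 1 was higher and 9 lower in KO1, and 6 were higher and 10 lower in KO2, with medians of -0.27 and -0.35. Over all tested genes 15.6% were higher and 14.9% lower in KO1, and 24.6% and 29.5% in KO2, with medians of 0 and -0.03. The immediate early gene Egr1 fell by 1.46 in KO1 (adjusted p 0.000726) and by 0.80 in KO2 (adjusted p 0.0098), both by edgeR. Egr1 varied within Ctrl, where the highest library was 2.02 times the lowest. The lowest Ctrl library had 42.3 CPM and the highest KO2 library 41.6. Without single libraries the KO2 value of Egr1 ran from -1.03 to -0.55. Fos and Junb, which encode AP-1 subunits, had log2 fold changes of -3.29 (adjusted p 2.55e-06) and -2.42 (adjusted p 2.09e-09) in KO2, both by edgeR, and so fell. In KO1 Junb fell by 0.53 (adjusted p 0.000593, edgeR), while Fos stood at -0.57 with an adjusted p of 0.079. The feedback inhibitor Spry1 went the other way, since it rose by 2.69 in KO1 (adjusted p 6.18e-08) and by 0.95 in KO2 (adjusted p 6.93e-05), both by edgeR. Also called higher in KO2 were Etv4 (0.81), Etv5 (0.83), Spred1 (0.53), Spred2 (0.62) and Ccnd1 (0.18). Also called lower there were Ier3 (-1.97), Myc (-1.38), Phlda1 (-1.38), Maff (-1.04), Dusp5 (-0.82), Spry2 (-0.43) and Dusp6 (-0.35). In KO1 the other genes called lower were Dusp6 (-0.88), Ier3 (-0.87), Dusp5 (-0.77), Spry2 (-0.55), Dusp4 (-0.37), Etv4 (-0.23) and Spred2 (-0.19). Etv5, Spred1 and Ccnd1 were not called in KO1, nor were Myc, Phlda1 and Maff.

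Marker sums of the tumour and of other cell types differed between these groups as well. The epithelial markers summed to between 456 and 472 FPKM in Ctrl, 800 and 939 in KO1, and 1342.3 and 1447.9 in KO2, nearly all of it Krt8 and Krt18. Epcam, Cdh1, Krt19, Cldn4 and Cldn7 each reached at most 0.36 FPKM in any library. Epcam went the other way from the sum, from a mean of 0.223 FPKM in Ctrl to 0.0267 in KO1 and 0.0167 in KO2. The fibroblast markers summed to between 55.3 and 57.2 FPKM in Ctrl, 46.5 and 50.3 in KO1, and 22.8 and 23.7 in KO2, mostly Pdgfra. Col1a1 reached at most 0.46 FPKM in any library, Col1a2 at most 0.31 and Lum at most 0.02. Within that list Dcn went from between 7.55 and 8.16 FPKM in Ctrl to between 0.05 and 0.13 in KO2. Macrophage markers summed to between 12.2 and 17.6 FPKM in Ctrl, 23.9 and 32.0 in KO1, and 9.49 and 11.4 in KO2, nearly all of it Cd68. In bulk RNA, fewer cells of a type and less RNA per cell cannot be told apart, and the part of these markers in the values of Areg, Hbegf and Btc was not tested.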

How the data were processed

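RNA-seq of 9 libraries (3 each of Ctrl, KO1 and KO2, grouped by their titles) was analysed from the deposited gene tables. Per the submitters' processing notes the authors used HISAT and RSEM with the builds mm10 and GRCm38, and versions are not given in the sources used here. Each deposited table gives an expected count per gene, which the authors did not normalise, and FPKM, in which the authors corrected for the length of the transcript and the size of the library. The deposited length column is in bases. Genes with an FPKM under 0.01 are not listed and were taken as 0.

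Expected counts were rounded to whole numbers and tested in R 4.3.3 by edgeR 4.0.16, with TMM scaling, a filterByExpr filter that left 13682 genes, and the robust quasi-likelihood F test in 1 fit of all 9 libraries (6 residual degrees of freedom). Adjustment over every tested gene followed Benjamini and Hochberg, and an adjusted p under 0.05 was a call. Alternatives used DESeq2 1.42.0, limma 3.58.1 on log2 FPKM, other filters and scaling, and left out each library in turn.

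The members and gene lists were chosen with earlier results of these data known. Genes named were the members, the other family genes, 7 set genes of shedding and inhibition, the 2 called genes with the largest fold change per list and comparison among those with a mean of at least 5 CPM in any 1 group, and the 2 nearest patterns to each member that changed at least 2-fold. Named as well were the genes of the ERK list that were called in KO1 or KO2 against Ctrl. Replicate numbers did not pair libraries.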

Additional observations from a re-analysis of the deposited data

Results flagged for a closer look

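The knockout lines differed from each other in 4 members by the edgeR contrast of KO2 against KO1, which compares the lines directly. The log2 difference was -2.45 for Areg and -1.13 for Hbegf, with all 3 KO2 libraries below all 3 KO1 libraries. It was -1.07 for Erbb3, which lay above Ctrl in KO1 and below it in KO2, and 0.46 for Tgfa, which was called lower than Ctrl in KO1 and overlapped Ctrl in KO2.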

How the results depend on the processing

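Results were recomputed under 17 alternatives per comparison, 9 of which left out a library. With a library left out, between 3215 and 4503 genes were called in KO1, 6412 and 7985 in KO2 against Ctrl, and 6451 and 7964 in KO2 against KO1. Of 1581 values of single named genes under these alternatives, 1500 kept their direction and their side of the threshold, 42 lost the call, 15 gained it and 24 changed sign, none of the last being called. Erbb2 in KO2 against Ctrl turned to -0.05 in limma on log2(FPKM + 1), -0.06 with a pseudocount of 0.1 and -0.05 without a filter, and ran from -0.03 to 0.07 without single libraries. Egfr in KO2 against KO1 turned to -0.01, -0.02 and -0.01 in the same fits and ran from -0.07 to 0.12. Lrig1 in KO2 against Ctrl was -0.05 in all 3 and ran from -0.03 to 0.06. Without single libraries the KO1 values ran from -0.03 to 0.36 for Egf, -0.15 to 0.06 for Frmd8, -0.11 to 0.27 for Lrig3, -0.08 to 0.14 for Nrg4 and -0.03 to 0.06 for Stat3. Tgfa in KO2 against Ctrl ran from -0.12 to 0.01, and Gab2 in KO2 against KO1 from -0.31 to 0.03. The cause of these changes was not tested. Areg remained called in all 17 alternatives of each comparison, with log2 fold changes of -1.96 to -1.29 in KO1 against Ctrl and -4.20 to -3.83 for KO2.

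The replicate numbers did not pair the libraries, since correlations between same-numbered libraries of different groups ran from -0.34 to 0.05. Between differently numbered libraries they ran from -0.17 to 0.34, the highest for Ctrl replicate 2 with KO1 replicate 1. With the replicate block 3365, 6726 and 6829 genes were called in KO1, KO2 and KO2 against KO1, and 2, 3 and 4 members. Egfr lost both calls (-0.39, adjusted p 0.076 and -0.37, adjusted p 0.0543, edgeR). Ereg, with 4 counts over all libraries, was removed by the filter on low counts, and without that filter no difference was detectable.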

Other observations

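KO2 replicate 2 held small counts of genes that were at or near 0 in the other KO2 libraries. Col1a2, a collagen gene of fibroblasts, had 49 counts there against 0 and 1, Pecam1 and Cdh5 of endothelial cells had 27 and 34 counts against at most 3, and the myeloid gene Lyz2 had 23 against 1 and 1. The 3 Gab1 counts and the 1 Lrig3 count of the KO2 group were in the same library.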
